A study of Homo sapiens with 9 samples.

Results

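The ETS family of transcription factors was followed in HEK293 cells that stably expressed wild-type MEK1 or either of 2 disease-associated MEK1 mutants. Its members here were 10 genes chosen by name: the PEA3 group, ETV1, ETV4 and ETV5, and 7 other ETS factors, ETV6, ETS2, ELK1, ELK3, ELK4, ERF and GABPA. They had 17 of the 50598 non-control probes and were 10 of the 36618 genes on the array. HEK293 is a human embryonic kidney cell line. By title and cell line field all 3 lines were HEK293 cells, although the source field of WT replicates 2 and 3 reads HEK294 and HEK295. Each had a stably introduced HA-tagged MEK1, the kinase that phosphorylates ERK, in its wild-type form (WT), with the RASopathy mutation F53S, or with the cancer mutation K57N. The lines were made by transfecting a pQCXIP plasmid and selecting with puromycin, and whether each is a pool or 1 clone is not given in the sources used here. The WT line thus also carried introduced MEK1, removal of the endogenous gene was not described, and RNA was taken at steady state. Each line was measured in 3 independent experiments on a 1-color Agilent array, and the question put to the data was how far each mutation changed the RNA of each factor.

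ETS factors share a DNA-binding domain that reads a GGAA core. The PEA3 factors are transcriptional activators whose genes are typical outputs of ERK signaling, and the repressor Capicua (CIC), which ERK inactivates, holds them low. ELK1, ELK3 and ELK4 are the ternary complex factors, which bind with serum response factor (SRF) at immediate early genes and are themselves ERK substrates. ETS2 is an activator phosphorylated by ERK, ERF and ETV6 are repressors, and GABPA is the DNA-binding subunit of GABP, a factor of housekeeping and mitochondrial genes.

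Values are log2 signals relative to the 75th percentile of the array, so 0 is the level of that percentile and a step of 1 is 2-fold. Signals of different probes are not compared with each other. Slide 1 held replicate 1 of each line and slide 2 held replicates 2 and 3. The 75th percentile lay between 245 and 376 signal units on slide 1 and between 695 and 821 on slide 2, so dim probes were measured less well on slide 1. Of the members' 17 probes, 15 were tested, those that the scanner software found well above background on every array of 1 or more lines, and each member kept at least 1 of them. ETV1, ETV4 and ETV5 met that condition through both mutants and ELK3 through K57N cells, not through WT cells. A gene was called when its limma adjusted p was below 0.05 and it differed more than 2-fold, and where a gene had several probes the brightest one tested stood for it. The HEK293 markers PAX2, LHX1, NEFL, VIM, KRT8 and KRT18 were measured in all lines, and none of the 6 was called, while NEFM was too dim to be tested. For 3 of them every K57N array lay above every WT array, where 10.2% of all genes did so. These were LHX1 (log2 difference 0.99), KRT18 (0.72) and NEFL (0.50). With the slide in the limma model the adjusted p was 0.0977, 0.00593 and 0.0193. PAX2, VIM and KRT8 overlapped, at 0.07, −0.03 and 0.04. The MEK1 gene, MAP2K1, differed by a log2 value of 0.48 in K57N cells (adjusted p = 0.135, or 0.00758 in the slide model) and 0.08 in F53S cells (adjusted p = 1, limma). All K57N arrays lay above all WT and F53S arrays for this probe, by less than 2-fold, and the part of that difference in the results below was not tested. Whether this probe reads the transgene was not tested. If it does, it cannot tell the transgene from the endogenous gene, nor a mutant from the wild type.

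Against WT cells, and at the brightest tested probe of each gene, the PEA3 genes were the members that moved most. In K57N cells the RNA of ETV4 rose 32.5-fold and that of ETV5 rose 14.6-fold over WT cells, and ETV1 was 6.97-fold higher at its brightest probe, a value that was not called. In bulk RNA, more cells that express a gene and more RNA per cell cannot be told apart. In F53S cells the same 3 genes were 12.2-fold, 7.0-fold and 3.98-fold higher than in WT cells, values that did not pass the adjusted test. These folds rest in part on WT replicate 1, which was not well above background for any of the 3 genes. Without that array ETV4, ETV5 and ETV1 were 24.4-fold, 7.75-fold and 3.27-fold higher in K57N cells, and 9.19-fold, 3.71-fold and 1.87-fold higher in F53S cells. Of these 6 values only ETV4 and ETV5 in K57N cells were called. The sizes also depend on the background correction. With normexp the median log2 difference of the 3 genes over WT was 2.27 in K57N cells, down from 3.87. In F53S cells it was 1.36, down from 2.81. Of the 7 other factors, only ELK3 was called, 2.16-fold higher in K57N cells, and none was called in F53S cells.

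ETV4, known for its role in branching of the kidney and in invasive carcinoma, is read by 1 probe at chr17:41605966-41606025 (hg19, minus strand). It is shown because the largest change among the members rests on it, and it holds no stop codon in 2 of its 3 reading frames.
ETV4 probe A_24_P416346: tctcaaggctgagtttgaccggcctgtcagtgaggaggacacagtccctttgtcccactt
Its log2 signal was −4.93, −3.83 and −3.54 in WT replicates 1, 2 and 3. It was 0.15, −0.88 and −0.74 in the F53S replicates and 1.16, 0.80 and 0.80 in the K57N replicates. The 3 lines did not overlap, with every F53S array between the WT and the K57N arrays. WT replicate 1, the lowest, was not well above background, while the other 8 arrays were. K57N exceeded WT by 5.02 ± 0.40 (log2, SE, n = 3 per line; 95% interval 4.11 to 5.93; limma adjusted p = 6.16e-04). Within slide 2 the difference was 4.49, and on slide 1 it was 6.09. F53S exceeded WT by 3.61 ± 0.40 with an adjusted p of 0.32 (limma), or 0.0837 when the slide was included in the model. On the 6 arrays of slide 2 alone that difference was 2.88 and was called (adjusted p = 0.0384). K57N exceeded F53S by 1.41 ± 0.40 (adjusted p = 0.2), and by 1.61 on slide 2 alone, where it was called (adjusted p = 0.00434). ETV4 kept its K57N call in all 9 fits that left out 1 array, with log2 differences between 4.61 and 5.30.

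ETV5, a PEA3 factor that acts with ETV4 in kidney and lung branching, was read by a probe at chr3:185764547-185764606 (hg19, minus strand). Its log2 signal was −6.04, −3.39 and −3.19 in WT cells, −0.95, −1.62 and −1.63 in F53S cells and −0.21, −0.39 and −0.41 in K57N cells. Again the lines did not overlap, and WT replicate 1 was not well above background and lay far below the other WT arrays. K57N exceeded WT by 3.87 ± 0.67 (log2, SE; 95% interval 2.34 to 5.40; limma adjusted p = 0.0221). The size depends on that array: without WT replicate 1 the difference was 2.95, within slide 2 it was 2.89 (adjusted p = 3.11e-04), and on slide 1 it was 5.83. The call was lost without K57N replicate 1, 2 or 3 (adjusted p = 0.0896, 0.0909 and 0.0887), with differences of 3.81, 3.90 and 3.91. Including the slide in the model gave an adjusted p of 0.00657. F53S exceeded WT by 2.81 ± 0.67 (adjusted p = 1, limma), and by 1.66 on slide 2 alone (adjusted p = 0.0656). K57N exceeded F53S by 1.06 ± 0.67, which was not called (adjusted p = 0.745), and by 1.23 on slide 2 alone, which was (adjusted p = 0.00379).

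ETV1, a PEA3 factor fused or overexpressed in prostate cancer and needed in gastrointestinal stromal tumors, had 4 probes that did not all behave alike. The brightest of those tested, A_33_P3357949 (chr7:13934085-13934144, hg19, minus strand), gave −6.06, −3.17 and −2.39 in WT cells. It gave −2.37, −1.58 and −1.68 in F53S cells and −1.67, −0.68 and −0.86 in K57N cells. WT lay below both mutants on every array, the mutants overlapped each other, and WT replicate 1 was again not well above background. K57N exceeded WT by 2.80 ± 0.83 (log2, SE), which was not called (adjusted p = 0.152, limma). It was called when the model included the slide (adjusted p = 0.0101), with the replicate number as a block (adjusted p = 0.0203) and on slide 2 alone, at 2.01 (adjusted p = 0.0109). It was not called without WT replicate 1, at 1.71 (adjusted p = 0.102), nor in the slide model when dim probes were kept (adjusted p = 0.055). F53S exceeded WT by 1.99 ± 0.83 (adjusted p = 1), but by 0.90 without WT replicate 1 and by 1.15 on slide 2 alone (adjusted p = 0.604). K57N exceeded F53S by 0.81 ± 0.83 (adjusted p = 0.921).

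A second ETV1 probe further downstream, A_33_P3401156 (chr7:13933395-13933454), was called in K57N cells, which exceeded WT by 2.16 ± 0.41 (adjusted p = 0.0346, limma). Its WT values were −5.90, −4.92 and −4.94, its F53S values −4.52, −3.50 and −3.74 and its K57N values −3.80, −2.80 and −2.67. The signal was close to background, with 1 of 3 WT arrays and 2 of 3 F53S arrays well above it. In the model with the slide, F53S exceeded WT by 1.33 at this probe (adjusted p = 0.0314), while with the replicate number as a block the adjusted p was 0.17. A probe still further downstream, A_32_P78491, was well above background on 3 arrays in all and was not tested.

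The remaining ETV1 probe, A_33_P3357954 at chr7:13935632-13935691, disagreed with these. Its sequence is shown because it has no stop codon in 2 of its 3 reading frames, whereas A_33_P3357949 and A_33_P3401156 each have 1 such frame.
ETV1 probe A_33_P3357954: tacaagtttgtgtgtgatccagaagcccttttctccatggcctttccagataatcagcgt
Its signal was −3.97, −4.25 and −1.57 in WT cells, −3.12, −3.70 and −3.41 in F53S cells and −2.72, −2.84 and −2.83 in K57N cells. WT replicate 3 stood above all other arrays, and on replicates 1 and 2 K57N exceeded WT by 1.25 and 1.42. WT replicate 1 was not well above background at this probe either. Over the 3 replicates the difference was 0.47 ± 0.61 (adjusted p = 0.919), with a 95% interval from −0.93 to 1.87 that also holds a change of more than 2-fold.

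**Figure D1:**
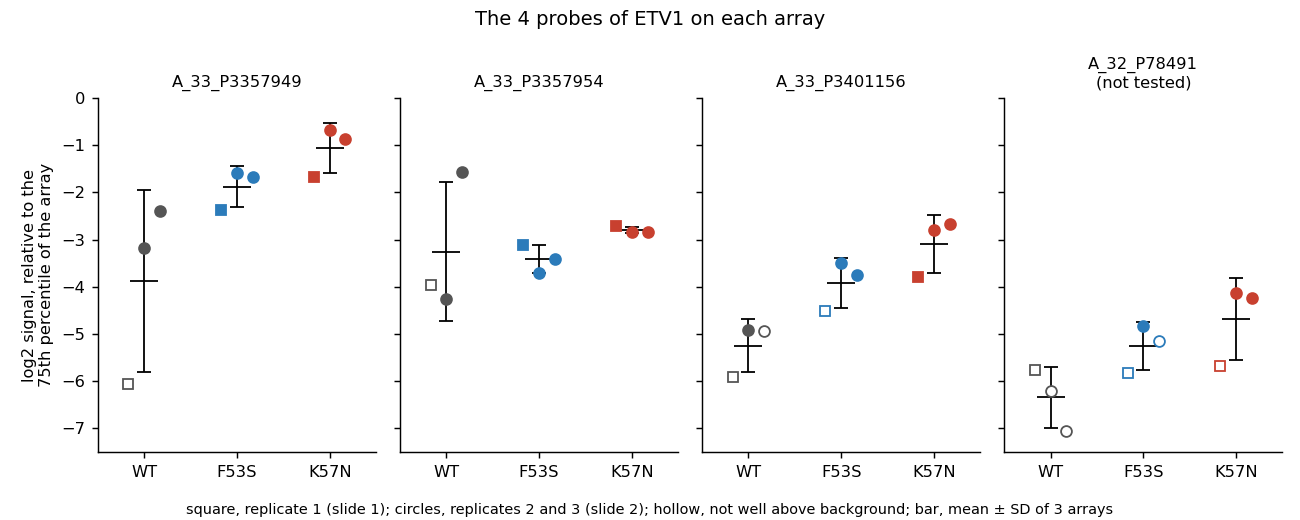
Log2 signal of the 4 ETV1 probes relative to the 75th percentile of the array, for WT, F53S and K57N cells (square, slide 1; circles, slide 2; hollow, not well above background; bar, mean ± SD of 3 arrays). In A_33_P3357949 and A_33_P3401156 every WT array lies below every array of the mutants, while in A_33_P3357954 WT replicate 3, at −1.57, is the highest of the 9.

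The RefSeq promoter table (GRCh38.p14) had entries for 8 of the 10 members with 17 start sites, and 6 of these starts were of ETV1. ETV4 and ETV5 were not among the 8. The 250 bases before each start were searched on both strands for the CIC octamers TGAATGAA and TGAATGGA and for CCGGAA, an ETS-type core. Of the 17 windows 1 held a CIC octamer, compared with 2.19% of all 35116 windows, and 5 held CCGGAA, compared with 14.5%. Of the windows with CCGGAA 3 were of ETV1, and their starts lie close enough that some windows overlap. The 1 window with both kinds of motif belongs to an ETV1 start and is shown, with TGAATGGA and CCGGAA in capitals, because CIC is the known repressor of the PEA3 genes. It spans chr7:13991426-13991675 on the minus strand, and the matches begin 136 bases (CCGGAA) and 125 bases (TGAATGGA) before the start.
ETV1 promoter: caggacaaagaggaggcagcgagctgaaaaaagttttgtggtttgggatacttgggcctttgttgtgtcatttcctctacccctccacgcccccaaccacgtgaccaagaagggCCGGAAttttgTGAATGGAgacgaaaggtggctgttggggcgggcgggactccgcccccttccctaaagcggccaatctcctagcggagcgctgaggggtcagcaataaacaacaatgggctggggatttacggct
These matches describe the letters of the window and were not tied to any measurement of binding.

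Among the ternary complex factors, ELK3 (also called NET) rose in K57N cells. Its log2 signal was −4.07, −3.88 and −3.79 in WT cells, −3.92, −3.54 and −3.44 in F53S cells and −2.78, −2.73 and −2.89 in K57N cells. All K57N arrays lay above all others, while WT and F53S overlapped, and replicate 1 of WT and of F53S was not well above background. K57N exceeded WT by 1.11 ± 0.18 (log2, SE; limma adjusted p = 0.0155), just past the 2-fold limit. The difference was 1.02 on slide 2 and 1.29 on slide 1. The adjusted p rose above the threshold without WT replicate 2 (0.0706) or 3 (0.0569) and without K57N replicate 1 (0.0552), 2 (0.0856) or 3 (0.0661), at differences between 1.08 and 1.17. With normexp background correction the difference was 0.48 and was not called. K57N exceeded F53S by 0.84 ± 0.18 (adjusted p = 0.0754), and F53S exceeded WT by 0.28 ± 0.18 (adjusted p = 1).

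ELK1 and ELK4 were not called in any comparison. ELK1 differed by 0.18 ± 0.30 between K57N and WT (adjusted p = 0.958), with arrays that overlapped, and its second tested probe by 0.26. ELK4 differed by −0.02 ± 0.18 (adjusted p = 0.991), with a 95% interval from −0.42 to 0.38. Its other probe gave 0.38 ± 0.17 (adjusted p = 0.419). In F53S cells ELK4 was 0.36 above WT on the brighter probe, at −1.94, −1.92 and −1.91 against −2.40, −2.25 and −2.19 in WT (adjusted p = 1). Those arrays did not overlap.

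ETS2 was −1.88, −1.53 and −1.56 in WT cells, −1.57, −1.43 and −1.47 in F53S cells and −1.01, −1.02 and −1.06 in K57N cells. The K57N arrays lay above all others. The difference from WT was 0.63 ± 0.15 (adjusted p = 0.0849, limma). The slide model lowered this p to 0.00536, with a change still below 2-fold. ETV6 was 0.55 ± 0.21 above WT in K57N cells at its brighter probe (adjusted p = 0.291, or 0.00572 in the slide model). Its other probe, in a different part of the gene, gave 0.06 ± 0.53 (adjusted p = 0.992). ERF differed by 0.20 ± 0.26 (adjusted p = 0.919) and GABPA by 0.23 ± 0.62 (adjusted p = 0.981). GABPA shows the slide difference most plainly, with −0.76 on slide 1 and 0.81 and 0.87 on slide 2 in WT cells, −0.87, 0.64 and 0.98 in F53S cells and −0.27, 0.95 and 0.91 in K57N cells. In the slide model its standard error fell to 0.14 and the difference was still not called (adjusted p = 0.286).

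Against all genes tested, 3 of the 10 members were called higher in K57N cells than in WT cells, ETV4, ETV5 and ELK3, where 1.52% of the 19217 genes were (293 genes). The 3, and ETV1, passed the filter on dim probes through the mutant lines, where they were higher, so the counts and ranks of this paragraph are given as descriptions. When no probe was filtered out ETV4 alone was called, with an adjusted p of 0.0827 for ETV5 and 0.131 for ELK3. In the slide model 4 were called, ETV1 joining them, where 2.56% of all genes were, and on slide 2 alone the same 4 were, where 2.44% were. None was called lower in either fit, where 0.739% of all genes were without and 1.96% with the slide in the model. The median log2 difference was 3.87 over the 3 PEA3 genes and 0.23 over the 7 others, beside −0.06 over all genes tested. With normexp background correction the PEA3 median was 2.27, and within slide 2 it was 2.89. By size, ETV4, ETV5 and ETV1 ranked 12, 40 and 106 of 19217, 22, 102 and 264 without WT replicate 1, and 19, 97 and 178 on slide 2 alone. The arrays of K57N and WT did not overlap, with K57N higher, for 6 of the 10 members (ETV1, ETV4, ETV5, ELK3, ETS2 and ETV6), where 10.2% of all genes did so. None did so in the other direction, where 12.7% of all genes did.

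In F53S cells no member was called, and no gene at all was called in either direction (0% of 19217, limma, also in the slide model). On slide 2 alone 2 genes were called higher, ETV4 and the collagenase gene MMP1 (0.0104%). Before adjustment, 43 genes had a limma p below 0.05 with a change over 2-fold, among them ETV1, ETV4 and ETV5. The methods' t-test gave 24 on the same terms, among them ETV4 and ETV5. By size of difference ETV4 ranked 1, ETV5 ranked 4 and ETV1 ranked 9 of all genes. Without WT replicate 1 they ranked 1, 15 and 289, and on slide 2 alone 2, 19 and 63. The median was 2.81 over the PEA3 genes and 0.17 over the 7 others, beside 0.01 over all genes. With normexp background correction the PEA3 median was 1.36, and within slide 2 it was 1.66. Arrays did not overlap, with F53S higher, for 4 members (the PEA3 genes and ELK4), where 1.53% of all genes did so, and for none with F53S lower, where 1.62% did. Both mutants were set against the same 3 WT arrays, so a low WT value raises both differences together. The PEA3 genes passed the filter on dim probes through the mutant lines, where they were higher. Their counts and ranks in F53S cells are thus descriptions too.

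Between the mutants no member was called, where 0.957% of all genes were called higher in K57N cells and 0.245% lower, or 1.89% and 1.1% in the slide model. Before adjustment, ETV4 was the 1 member among the 616 genes with a limma p below 0.05 and a change over 2-fold, and ETV4 and ETV5 were among the 498 genes of the methods' t-test. Arrays did not overlap, with K57N higher, for 4 members (ETV4, ETV5, ELK3 and ETS2), where 8.29% of all genes did so. They did not overlap, with K57N lower, for ELK4, where 10.4% did. The median difference was 1.06 over the PEA3 genes and 0.28 over the others, beside −0.07 over all genes. On slide 2 alone ETV4 and ETV5 were called higher in K57N cells, where 1.78% of all genes were.

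**Figure D2:**
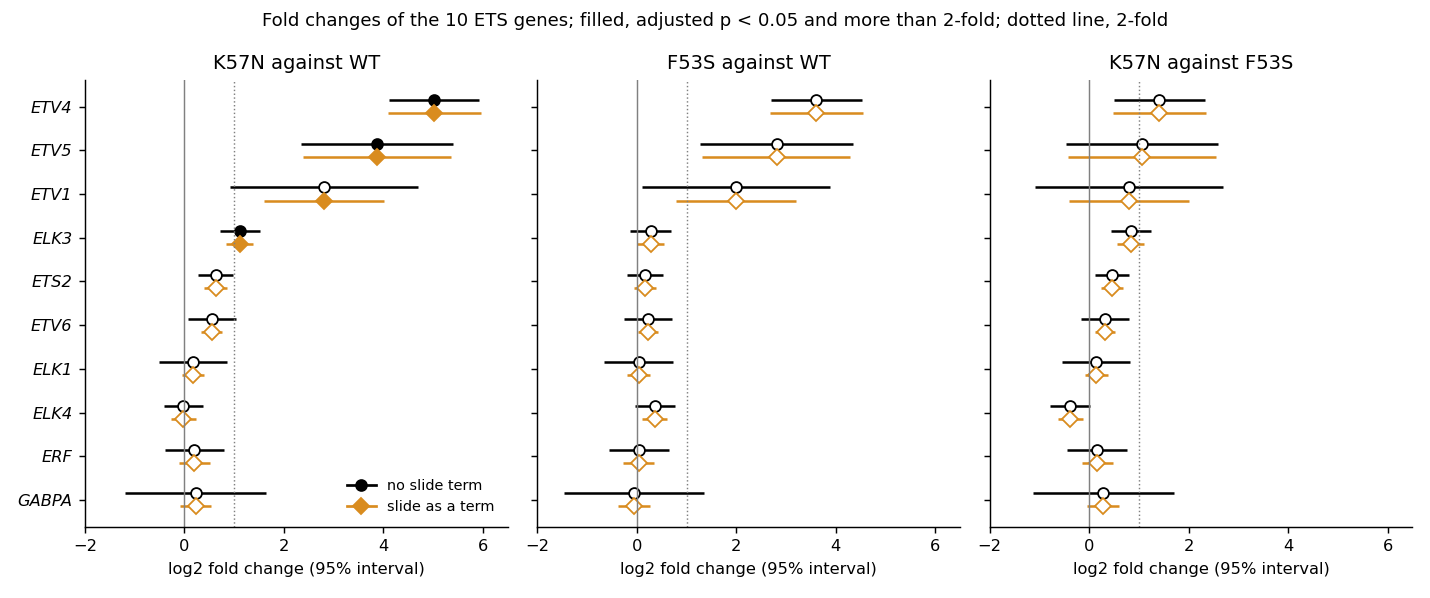
Log2 fold change of each ETS gene with its 95% interval (limma) in the 3 comparisons, without (circles) and with (diamonds) the slide in the model, and filled symbols were called. ETV4, ETV5 and ELK3 are filled in both fits for K57N against WT, ETV1 only in the slide model, and no symbol is filled in the other 2 panels.

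Over the 9 arrays, after the mean of each slide was subtracted, the genes whose signal was most like that of ETV4 were ADORA1 (Pearson r = 0.99), SPRY4 (0.99), ETV5 (0.977), INPP4A (0.975) and CSNK1D (0.974). ETV1 followed at place 10 (0.965). For ETV5 they were VAMP4 (0.993), ETV1 (0.992), UBASH3B (0.982), ABI1 (0.981) and INPP4A (0.979), with ETV4 at place 8. The 9 points share 3 lines, and WT replicate 1 was not well above background for ETV4, ETV5, ETV1 or SPRY4. The values, taken among 19153 genes, thus describe how alike the signals ran over the arrays, and rest in part on readings at background.

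Of 18 other ETS-domain genes, 8 were measured well enough to be tested: FLI1, ETV2, ETV3, ELF1, ELF2, ELF4, SPI1 and SPDEF. FLI1, an ETS factor of endothelium and blood and the partner in Ewing sarcoma fusions, was the 1 that was called without the slide in the model. It was called higher in K57N cells than in WT cells, where 1.52% of all genes were. It was also called higher than in F53S cells, where 0.957% of all genes were. Its log2 signal was −1.06, −0.87 and −0.97 in WT cells, −0.55, −0.52 and −0.43 in F53S cells and 1.25, 1.03 and 1.17 in K57N cells. All 3 lines stood apart, and the 9 arrays were well above background. K57N exceeded WT by 2.12 ± 0.14 (adjusted p = 3.10e-04, limma) and F53S by 1.65 ± 0.14 (adjusted p = 0.00238), while F53S exceeded WT by 0.47 ± 0.14 (adjusted p = 1). Blood and endothelial markers were read beside it. Of the blood markers PTPRC, CD3E and CD68, all tested, none was called, and their summed linear signal relative to the 75th percentile was 0.249 to 0.596 in WT, 0.219 to 0.721 in F53S and 0.652 to 1.38 in K57N cells. CD68 differed by 2.04 between K57N and WT (adjusted p = 0.0892, or 7.43e-05 in the slide model). Of the endothelial markers, CDH5 was tested, and its linear signal was 0.0951 to 0.231 in WT, 0.109 to 0.22 in F53S and 0.101 to 0.188 in K57N cells, while PECAM1 and KDR were too dim to be tested. At 1 of its 3 probes PECAM1 nevertheless read −5.02, −2.90 and −4.55 in K57N cells, above −5.78, −7.45 and −7.04 in WT cells and −5.82, −6.97 and −6.14 in F53S cells, with K57N replicates 2 and 3 well above background and the other 7 arrays not. KDR was well above background on K57N replicate 1 alone. The part of CD68, PECAM1 or other blood and endothelial genes in the FLI1 result was not tested. Of the fibroblast markers, COL1A2 and DCN were too dim to be tested. COL1A1 was 0.37, −0.54 and −0.39 in WT cells, 0.08, −0.71 and −0.58 in F53S cells and −1.22, −1.23 and −1.70 in K57N cells. It was lower on every K57N array than on any other, by 1.20 ± 0.31 against WT (adjusted p = 0.0993, or 0.00327 in the slide model).

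SPDEF, an ETS factor of secretory epithelium, was −3.09, −4.30 and −4.36 in WT cells, −2.36, −3.42 and −3.20 in F53S cells and −1.95, −2.54 and −2.40 in K57N cells. K57N exceeded WT by 1.62 ± 0.40 (adjusted p = 0.0897, limma). It was called in the slide model (adjusted p = 5.58e-04), where 2.56% of all genes were called higher. The other 6 differed from WT by between −0.44 (ETV2) and 0.35 (ELF1) in K57N cells, and ETV3, ELF2, ELF4 and SPI1 gave 0.20, −0.02, 0.27 and −0.38. None of these 6 was called in either model. The dim genes left untested were ETS1, ERG, FEV, ETV3L, ETV7, ELF3, ELF5, EHF, SPIB and SPIC.

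**Figure D3:**
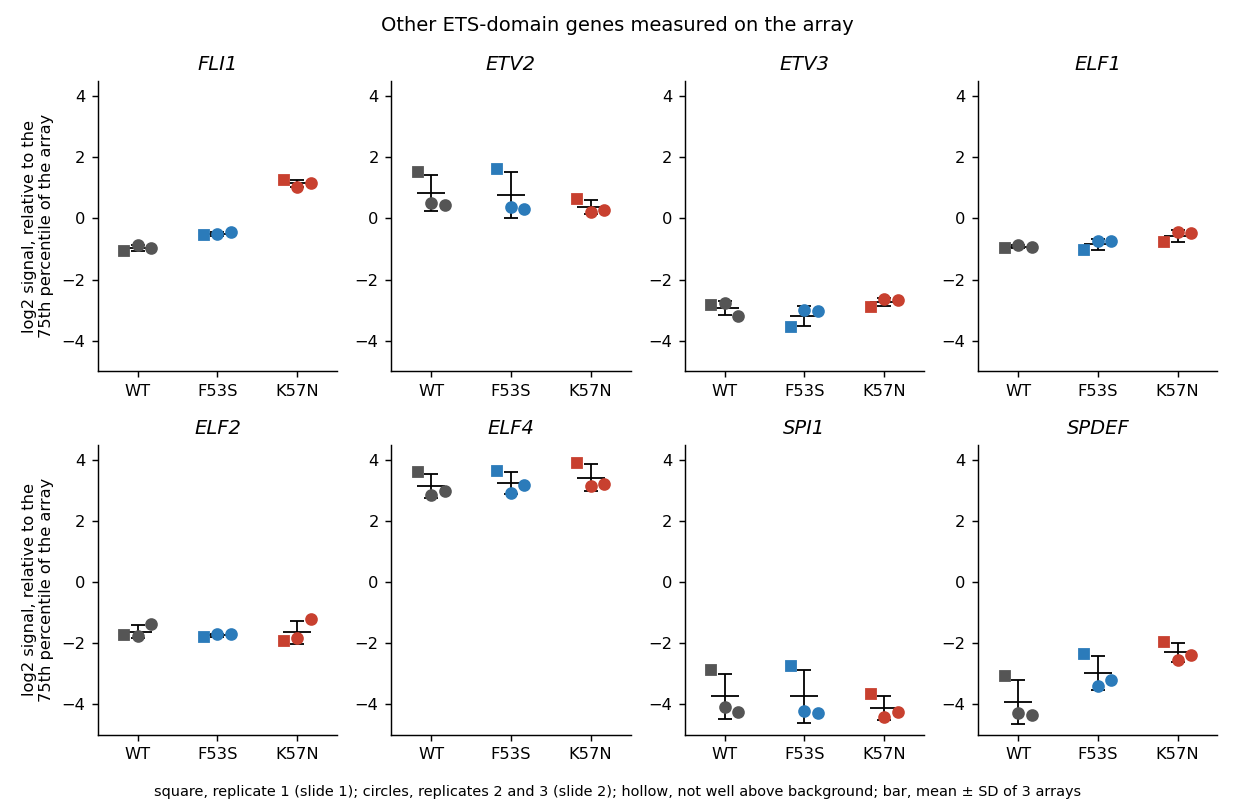
Log2 signal of the 8 other ETS-domain genes that could be tested, relative to the 75th percentile of the array (square, slide 1; circles, slide 2; bar, mean ± SD of 3 arrays). FLI1 lies between 1.03 and 1.25 in K57N cells and below −0.4 on every other array, SPDEF steps up from WT to K57N on both slides, and ETV2, ELF2, ELF4 and SPI1 overlap.

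The 11 partners and regulators of ETS factors described here were tested, and none was called in any comparison. Of all genes, 1.52% were called higher and 0.739% lower in K57N cells than in WT cells. The absence of calls among 11 genes is close to these shares. GABPB1, which encodes the activating subunit that pairs with GABPA, differed by 0.93 ± 0.23 in K57N cells (adjusted p = 0.082, or 0.00523 in the slide model, below 2-fold), and GABPB2 by 0.17. CIC differed by −0.48 ± 0.25 (adjusted p = 0.489), and its corepressors ATXN1 and ATXN1L by 0.23 and −0.44. SRF differed by −0.02, and its coactivators MRTFA and MRTFB by −0.45 and −0.46. COP1 and DET1, parts of the ubiquitin ligase that degrades PEA3 proteins, differed by 0.08 and −0.10. MAPK3, which encodes an ERK kinase, differed by −0.27. In the slide model MRTFA, MRTFB and ATXN1L were also below the threshold (adjusted p = 0.042, 0.02 and 0.0489), all lower in K57N cells and by less than 2-fold. The K57N arrays lay below every WT array for these 3 and CIC, and above every WT array for GABPB1, where 12.7% and 10.2% of all genes did so. In F53S cells the 11 lay between −0.14 and 0.14. These are RNA levels, and the protein or phosphorylation of these factors was not analysed here.

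The lists of genes downstream of these factors were counted in the same way. They were chosen with earlier results of these data known, so their counts are descriptions. Of 7 genes repressed by CIC or read as ERK output, 5 rose in K57N cells over WT cells (DUSP4, DUSP6, SPRY2, SPRY4 and SPRED1), with a median difference of 2.19 over the 7. Of 9 SRF and ternary complex factor targets, 7 rose (EGR1, EGR2, EGR3, FOS, FOSB, JUNB and IER2), with a median of 3.79. EGR3 stood well above background on the K57N arrays and on none of the others, so it entered through K57N cells, where it was at least 7.98-fold higher than in WT cells. With EGR3 at that bound the median was 3.47. Of the 7 tested ETS targets in invasion, 4 rose (MMP1, MMP3, PLAU and PLAUR), with a median of 2.63. MMP3 and PTGS2 were likewise well above background in K57N cells alone, at least 3.67-fold and at least 1.62-fold above WT, and the median with both at their bounds was 1.88. These bounds set each WT array at the lowest signal found well above background on it, or at the gene's own signal where that was higher. The share of all genes called higher was 1.52%. SPRY4 and MMP1 were not well above background on WT replicate 1 and passed the filter through the mutant lines, where they were higher. In the slide model SPRED2 and PTGS2 joined, giving 6, 7 and 5 genes, where 2.56% of all genes were called. The PTGS2 call rests on WT readings at background, and its bound of 1.62-fold lies below the 2-fold limit. None of these lists held a called gene in F53S cells in either model, while on slide 2 alone MMP1 was called, at 2.08. Over all 9 arrays, their F53S medians were 0.99, 0.76 and 0.23 over the genes measured in either line, beside 0.01 over all genes. Between the mutants, 3 of the CIC or ERK output genes (DUSP4, DUSP6 and SPRY2), the same 7 of the SRF targets and 3 of the invasion genes (MMP1, MMP3 and PLAUR) were higher in K57N cells, where 0.957% of all genes were. The slide model added SPRY4, PLAU and PTGS2, giving 4, 7 and 5 genes, where 1.89% of all genes were called. EGR3, MMP3 and PTGS2 were not well above background on any F53S array, so their calls against F53S rest on readings at background. No bound over F53S was computed. SHC3, a signaling adaptor in the CIC list, was highest on the F53S arrays, which lay above all others, and was not called in either model. Its log2 difference was 1.80 ± 0.33 between F53S and WT (adjusted p = 1) and −1.1 ± 0.33 between K57N and F53S (adjusted p = 0.242). SHC3 was well above background on 6 of the 9 arrays, those of F53S, 2 of K57N and 1 of WT. It thus passed the filter through F53S cells, where it was highest, and by the same kind of bound it was at least 2.44-fold above WT there.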

How the data were processed

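Total RNA of 9 cultures (3 per line) was hybridized by the authors to 1-color Agilent arrays. The deposited scanner files hold the intensity of each spot as processed by Feature Extraction 10.10.1.1 (per the labels), and the deposited log2 table equals the same intensities less a constant per array. From the files, log2 processed signal minus the 75th percentile of the array was computed, without outlier-flagged spots (278 to 501 per array), and repeated spots were averaged. Probes well above background on all 3 arrays of 1 or more lines (25409 probes, 19217 genes) were fitted with limma 3.58.1 (R 4.3.3) on all 9 arrays, with 1 mean per line and Benjamini-Hochberg adjustment over all probes. The scripts were tested on simulated data. Probe symbols came from RefSeq accessions (28173 probes) or else from the files, and coordinates (hg19) from the files. Genes named are the members and the called genes of lists, with every tested gene of the ETS-domain and partner lists, MAP2K1, and the 5 genes most like ETV4 and ETV5. Cell type markers, untested ETS genes and SHC3 were named outside that rule, SHC3 after its values were seen. A further partner gene and a further blood marker are not reported here. Members and lists were chosen with earlier results of these data known. The number of arrays, 3 per line, limits the precision. Deviations from the line means correlated at 0.35 to 0.88 in all 9 pairs of same-numbered arrays, with numbers from the titles. Arrays of different number were not compared, and replicate 1 was on a slide of its own. These values therefore cannot separate a pairing by number from the slide. Alternatives were normexp, quantile and median scaling, other dim-probe filters, slide or replicate blocks, slide 2 alone, the deposited table, the methods' t-test, pairs of groups and each array left out. The slide block combined with other filters, backgrounds or normalizations was chosen after seeing the data.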

Additional observations from a re-analysis of the deposited data

Results flagged for a closer look

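FLI1 differed between the mutants: K57N exceeded F53S by 1.65 on the log2 scale (adjusted p = 0.00238, limma, n = 3 per line), a direct test of the 2 mutants. It was the only 1 of the 10 members, the 8 other ETS-domain genes tested and the 11 partners that passed this test in the model without the slide.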

How the results depend on the processing

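Each comparison has 3 arrays per line, and WT replicate 1, on slide 1, was not well above background for the PEA3 genes. This limits the size of their differences more than their direction. The number of members called for K57N against WT was 3, and it was 1 (ETV4) with quantile normalization or when dim probes were not filtered out. It was 0 of 6 members when probes had to be well above background on all 9 arrays, a filter that drops the PEA3 genes and ELK3 and so gives them no value. It was 4 with the replicate number as a block, where ETV1 joined, and that block changed no other call among the members. With 1 array left out it lay between 1 and 3, and was 1 without K57N replicate 1, 2 or 3. For F53S against WT the number rose from 0 to 1 on slide 2 alone, and to 2 with the methods' t-test before adjustment or with the slide block and normexp together. For K57N against F53S it rose from 0 to 2, 2 and 1 under the same 3 settings. The cause of these shifts was not tested. On slide 1, where the 1 WT array was not well above background for the PEA3 genes, the differences from WT start from a reading at background. There, with no test, the PEA3 medians were 5.83 (K57N against WT), 5.08 (F53S against WT) and 0.74 (K57N against F53S), and those of the 7 others for K57N were 0.45 against WT and 0.18 against F53S. The median of the 7 others for K57N against WT was 0.40 on slide 2 and lay between 0.23 and 0.62 with 1 array left out. For F53S against WT it was 0.12 with normexp, with or without the slide block, 0.12 on slide 2, 0.14 with the array median as the scale, 0.10 with the all-array filter, and 0.15 to 0.33 with 1 array left out. For K57N against F53S it was 0.16 with normexp, with or without the slide block, and 0.22 to 0.45 with 1 array left out. No called value changed sign under any alternative.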
